A study of Mus musculus with 12 samples.

Results

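Haematopoietic niche factors are the genes through which stromal cells of bone and marrow hold and feed blood stem and progenitor cells. The 10 described here were taken as a fixed list of gene symbols in the deposited count table: Cxcl12, Kitl, Angpt1, Vcam1, Il7, Lepr, Foxc1, Ebf3, Nes and Ptn. All 10 were among the 53819 entries of the table, and all 10 passed the low-count filter that left 15698 entries for testing. RNA sequencing covered 12 libraries of stromal preparations from wild-type mice, 3 in each of 4 groups. BM sorted libraries came from cultured marrow cells isolated by flow cytometry for CD51 and Sca-1 on their surface and the absence of F4/80, Ly6C, CD45 and CD31 (the protocol text leaves CD31 out of this gate). BM nonsorted libraries came from the same kind of culture, hind-limb and pelvic marrow grown on collagen-I plates and taken after the first passage with no sort. BAC depleted libraries came from bone-associated cells (BAC), freed by collagenase I from hind-limb bone fragments and stripped of CD45+, Ly6C+ or F4/80+ cells with magnets, and BAC nondepleted libraries from bone-associated cells used without that step. Alpha MEM lacking ascorbic acid, with fetal bovine serum and under hypoxia, is the only medium given, for marrow and stromal cells. The labels give no strain, age or sex of the mice and do not say whether numbered libraries came from separate animals or cultures. P-values therefore measure the spread between these libraries, which may be technical.

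In the marrow, perivascular stromal cells that carry the leptin receptor (Lepr) secrete the chemokine CXCL12, which keeps stem cells in place through CXCR4, and stem cell factor (Kitl), which sustains them through KIT. The same cells make angiopoietin 1 (Angpt1, the ligand of TEK), interleukin 7 (Il7, needed by B-cell precursors), pleiotrophin (Ptn) and the adhesion molecule VCAM1, which binds integrin α4β1 on blood cells. The transcription factors FOXC1 and EBF3 keep these cells in their niche state, and nestin (Nes) is an intermediate filament used to mark perivascular stroma.

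Libraries held 27937709 to 32164725 counts. Levels are given in CPM, the read counts of a gene relative to the TMM-scaled size of its library, and means carry ± SD over 3 libraries. The library BAC depleted 1 stood apart: it held 43406 counts of Xist and 0 of the Y-linked gene Ddx3y. No other library held more than 16 counts of Xist, and the others held 2484 to 5846 of Ddx3y. By these genes its cells were female and those of the other libraries male, so it came from other mice. Comparisons that use it mix the sexes, and the part of sex in them was not tested. The main calls and counts that use BAC depleted 1 are also given without it. Stromal identity was carried by Prrx1, a mesenchymal transcription factor, at 406 ± 54.4 CPM in BM sorted, 413 ± 28.3 CPM in BM nonsorted, 634 ± 50.5 CPM in BAC depleted and 526 ± 81.1 CPM in BAC nondepleted libraries. The 14 macrophage markers summed to 13.3 to 15.5 CPM in BM sorted libraries, against 5043 to 5741 CPM in BM nonsorted libraries. They summed to 26.0 to 75.4 CPM in BAC depleted libraries, against 12860 to 14380 CPM in BAC nondepleted libraries, and Itgam, C1qa, C1qb, Fcgr1, Cx3cr1 and Msr1 were at 0 counts in all BAC depleted libraries. In such bulk libraries fewer cells of a type and less RNA per cell cannot be told apart, and the part of the macrophages in the differences below was not tested.

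Per kilobase of exon, Cxcl12 was the most abundant member in all 4 groups and its libraries did not overlap those of the member ranked next. It averaged 844.5 ± 612 CPM per kb in BM sorted, 376 ± 167 CPM per kb in BM nonsorted, 1180 ± 812 CPM per kb in BAC depleted and 120 ± 17.5 CPM per kb in BAC nondepleted libraries. By that measure it stood at the 99.9th percentile of the genes tested in both purified groups, at the 99.6th in BM nonsorted and at the 98th in BAC nondepleted libraries. Kitl came next in both marrow groups, at 29.3 CPM per kb in BM sorted and 15.6 CPM per kb in BM nonsorted, whereas Ptn came next in both bone groups, at 110.0 CPM per kb in BAC depleted and 24.0 CPM per kb in BAC nondepleted. Among the lower neighbours most ranges overlapped, so their order is not resolved by 3 libraries. In BM sorted libraries the ranges parted between Vcam1 and Nes and between Lepr and Il7, in BM nonsorted libraries between Ptn and Il7, and in BAC nondepleted libraries between Foxc1 and Lepr. Il7, the lymphoid cytokine, lay between the 20.8th and the 25.4th percentile in the 4 groups. Lepr, the gene that names this class of stromal cell in the mouse, lay at the 41st percentile in BM sorted, the 21.6th in BM nonsorted, the 31.5th in BAC depleted and the 56.9th in BAC nondepleted libraries.

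**Figure D1:**
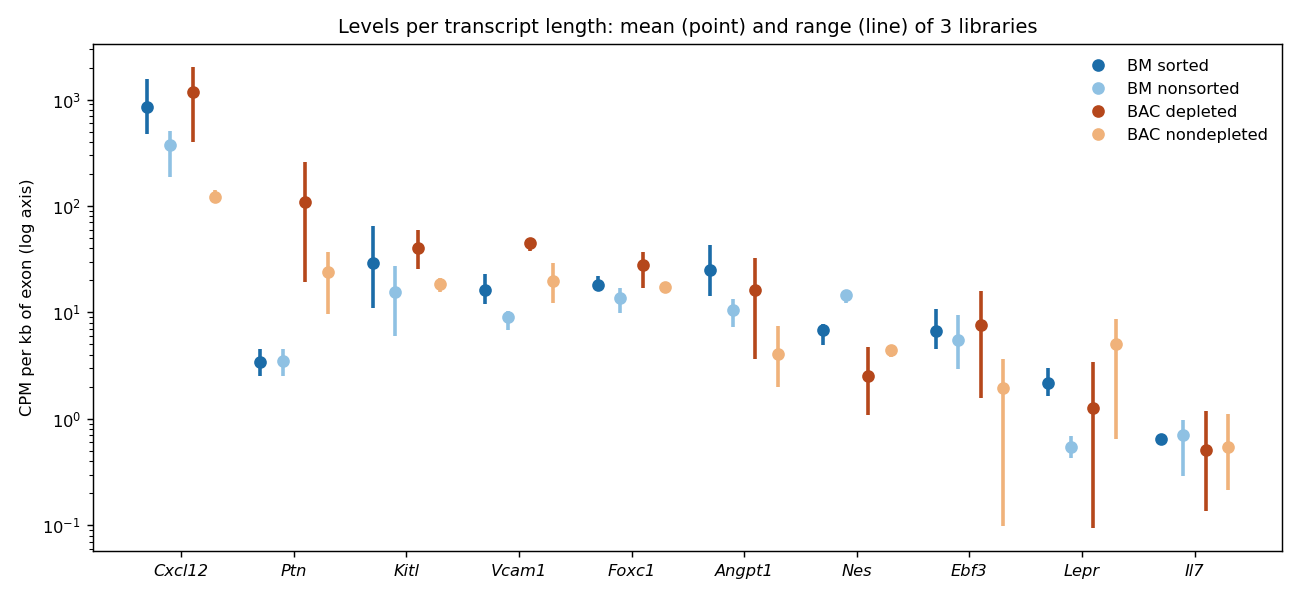
Mean (point) and range (line) of 3 libraries for the 10 niche factors in CPM per kilobase of exon, on a log axis, coloured by group. Cxcl12 lies above all other members in every group, and the ranges of most neighbours below it overlap.

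Stretches of promoter are shown for the members on which the comparisons below turn and for which a window was at hand, the chemokine Cxcl12, the filament gene Nes and the growth factor Ptn. Each runs from 250 bases before to 50 bases after the start of the RefSeq gene on mouse build GRCm38.p6, 5′ to 3′ on the strand of the gene, with CpG dinucleotides in capitals. The windows are chr6:117168285-117168584 on the plus strand for Cxcl12, chr3:87970843-87971142 on the plus strand for Nes and chr6:36810130-36810429 on the minus strand for Ptn.
Cxcl12: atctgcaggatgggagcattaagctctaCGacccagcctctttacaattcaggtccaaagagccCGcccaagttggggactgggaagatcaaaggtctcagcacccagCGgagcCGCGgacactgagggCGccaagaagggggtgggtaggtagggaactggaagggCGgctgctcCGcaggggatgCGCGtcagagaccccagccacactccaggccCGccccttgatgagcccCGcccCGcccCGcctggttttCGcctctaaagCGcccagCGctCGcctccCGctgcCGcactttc
Nes: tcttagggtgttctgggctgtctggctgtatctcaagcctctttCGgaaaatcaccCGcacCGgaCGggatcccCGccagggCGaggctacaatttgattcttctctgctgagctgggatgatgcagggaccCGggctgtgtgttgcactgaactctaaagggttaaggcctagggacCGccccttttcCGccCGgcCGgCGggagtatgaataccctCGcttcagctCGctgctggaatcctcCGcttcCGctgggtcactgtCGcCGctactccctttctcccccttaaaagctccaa
Ptn: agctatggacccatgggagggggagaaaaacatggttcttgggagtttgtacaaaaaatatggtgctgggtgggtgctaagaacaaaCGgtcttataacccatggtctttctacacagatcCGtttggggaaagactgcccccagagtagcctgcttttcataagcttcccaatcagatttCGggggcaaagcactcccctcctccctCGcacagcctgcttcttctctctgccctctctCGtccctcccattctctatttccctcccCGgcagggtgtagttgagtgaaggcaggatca
The Cxcl12 window held 20 CpGs, more than 73.5% of 32851 such windows, and the Nes window 18, more than 70.3% of them. With 6 CpGs the Ptn window was close to the median window, which held 7. In all, 7 of the 10 members matched windows, 8 windows with 2 for Lepr, and the other windows held 28 CpGs for Kitl, 32 for Foxc1, 46 for Ebf3, and 18 and 13 for Lepr. Since FOXC1 is a forkhead factor, both strands were searched for the forkhead motif GTAAACA. These letters stood in 0 of the 8 windows, against 3.65% of all windows of the same length. At so low a share 8 windows would most often hold none, so the 0 says nothing about the niche genes.

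Sorting of marrow cultures was the first comparison, and it asks what the niche programme looks like once macrophages and other cells are gone. None of the 10 members passed the test between BM sorted and BM nonsorted libraries, where 6.23% of all genes did, 0.166% higher and 6.06% lower. In edgeR 2 members had an unadjusted p under 0.05, Vcam1 and Nes, and DESeq2's Wald test called 0 members too. The median log2 fold change of the members was 0.62, against 0.00 for all genes tested.

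Cxcl12 had 12680, 4148 and 3888 CPM in BM sorted libraries 1 to 3, against 1541, 3496 and 4177 CPM in BM nonsorted libraries. The first sorted library was the high one, and the other two lay inside the range of the unsorted ones. The log2 fold change was 1.17 ± 0.63 (SE), with an adjusted p of 0.453 by edgeR's quasi-likelihood test, and 0.39 without BM sorted 1. Kitl, stem cell factor, had the same high library, with 382, 72.5 and 64.5 CPM in BM sorted and 35.8, 81.0 and 160 CPM in BM nonsorted libraries. Its log2 fold change was 0.91 ± 0.71 (SE), adjusted p = 0.666, and -0.43 without BM sorted 1, so its direction rests on that library.

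Angpt1 had 221.5, 75.0 and 91.4 CPM in BM sorted libraries, against 38.2, 69.3 and 58.1 CPM in BM nonsorted libraries. Vcam1 had 204, 118.5 and 108 CPM in BM sorted libraries, against 90.4, 91.8 and 60.0 CPM in BM nonsorted libraries. Lepr had 21.1, 11.6 and 12.9 CPM in BM sorted libraries, against 3.69, 4.83 and 3.01 CPM in BM nonsorted libraries. In these 3 genes every sorted library was above every unsorted one, a separation shown upward by 12.1% of all genes and in either direction by 28.7%. Log2 fold changes were 1.23 ± 0.75 (SE) for Angpt1, 0.83 ± 0.34 for Vcam1 and 1.98 ± 1.15 for Lepr, with adjusted p of 0.528, 0.264 and 0.500 by the same test. When only the 6 marrow libraries were fitted, the Lepr value stayed at 1.98 and passed with an adjusted p of 0.00647. The exons of Angpt1 overlap an antisense gene over 14.2% of their bases, and those of Vcam1, Il7 and Ebf3 over 0.688%, 1.85% and 3.85%, and since the strand setting of the counting is not known, reads of both partners could be mixed.

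Nes went the other way, with 31.7, 50.4 and 48.3 CPM in BM sorted libraries and 102, 98.7 and 78.0 CPM in BM nonsorted libraries. The groups did not overlap, a downward separation shown by 16.7% of all genes, and the log2 fold change was -1.10 ± 0.43 (SE), adjusted p = 0.239. With only the marrow libraries fitted it passed, with an adjusted p of 0.0133. Foxc1, Ebf3, Il7 and Ptn overlapped between the groups, with log2 fold changes of 0.41, 0.27, -0.13 and -0.03 and adjusted p of at least 0.588.

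**Figure D2:**
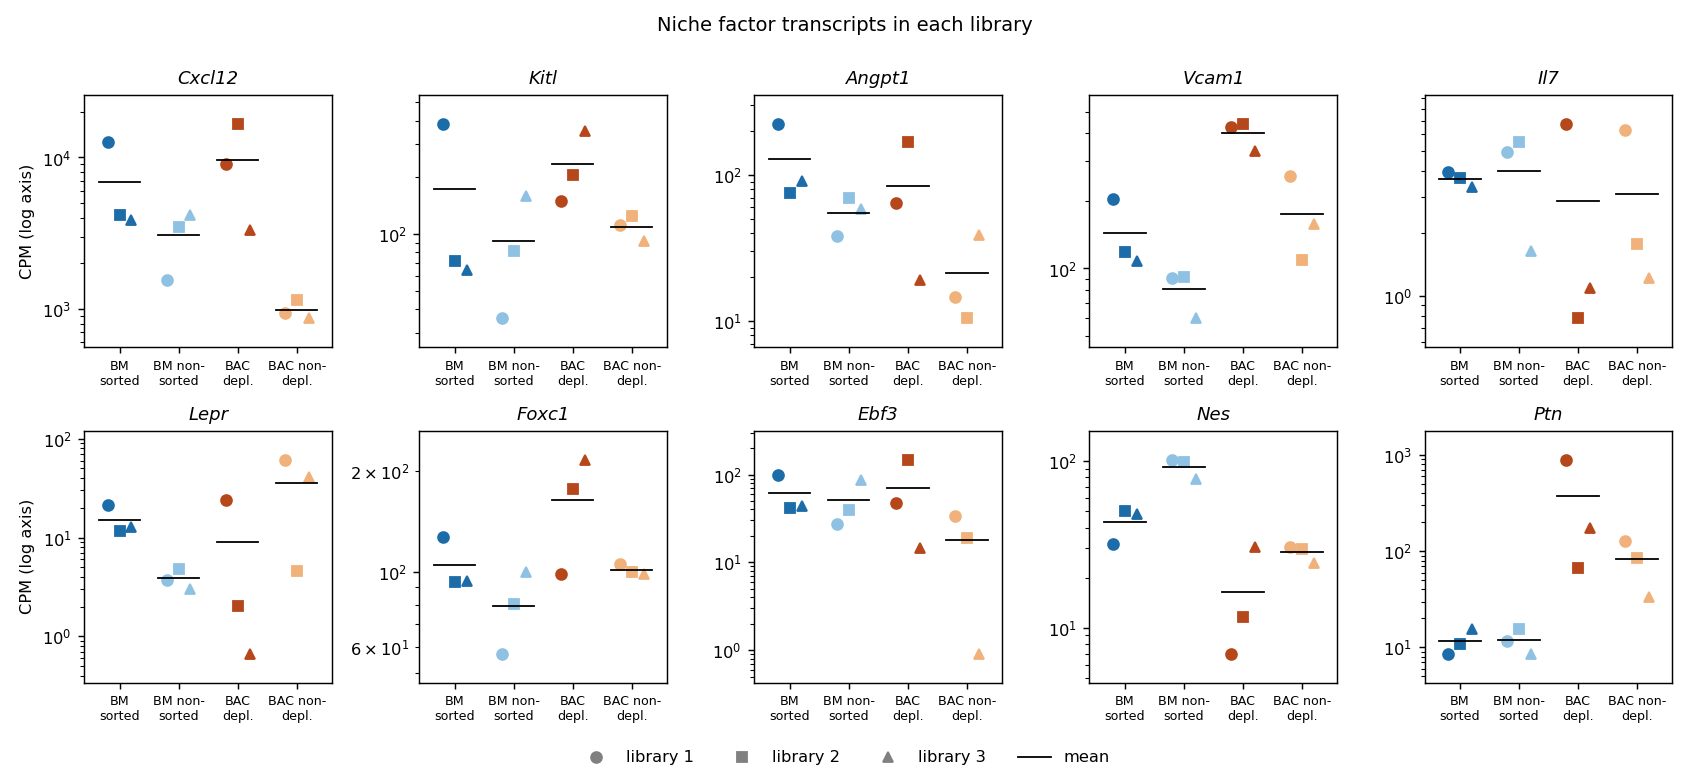
CPM of the 10 niche factors in each library on log axes, 1 panel per gene, with symbols for libraries 1 to 3 and a line at the group mean. BM sorted libraries lie above BM nonsorted ones for Angpt1, Vcam1 and Lepr and below them for Nes, and Ptn is at 8.60 to 15.6 CPM in all marrow libraries and at 33.3 CPM or more in all bone libraries.

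Cxcl12 and Vcam1 rose on depletion of bone-associated cells. These 2 of 10 members passed as higher in BAC depleted than in BAC nondepleted libraries, and 0 as lower, where 37.3% of all genes passed, 17.4% higher and 19.9% lower. The members' median log2 fold change was 1.15, against 0.05 for all genes. A share of 2 in 10 upward is near the background, so the count itself is no result about the niche genes. With BAC depleted 1 left out, 3 members were higher, Foxc1 in addition to Cxcl12 and Vcam1, and 1 was lower, Lepr.

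Cxcl12 had 9107, 16530 and 3293 CPM in BAC depleted libraries, against 941.5, 1144 and 867 CPM in BAC nondepleted libraries. The lowest depleted library was still above every nondepleted one, and the depleted libraries differed among themselves by a factor of 5.02. The log2 fold change was 3.29 ± 0.68 (SE; 95% interval 1.79 to 4.801), with an adjusted p of 0.00413 by edgeR's quasi-likelihood test, and 3.33 without BAC depleted 1. It was 2.65 without BAC depleted 2, with an adjusted p of 0.0103, and 3.695 without BAC depleted 3, and its call held without any 1 of the 6 bone libraries, with adjusted p of up to 0.0197. Cxcl12 took 0.264% to 1.58% of all counts in BAC depleted libraries and 0.0801% to 0.108% in BAC nondepleted libraries. Vcam1 had 428, 439 and 333 CPM in BAC depleted libraries, against 259, 109 and 158 CPM in BAC nondepleted libraries. Again the groups did not overlap, and the log2 fold change was 1.19 ± 0.34 (SE; 95% interval 0.44 to 1.94), adjusted p = 0.0201. The Vcam1 call was lost without BAC nondepleted 2, with an adjusted p of 0.0665, and without BAC nondepleted 3, with 0.0649, and without BAC depleted 1 the value was 1.14, with an adjusted p of 0.0468.

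Kitl was the other member whose libraries parted upward, as did 21.4% of all genes, and 0 members parted downward, as did 24.9%, or 46.3% in either direction. It had 151, 206 and 352 CPM in BAC depleted and 112, 125 and 91.5 CPM in BAC nondepleted libraries, and its log2 fold change of 1.11 ± 0.71 (SE) had an adjusted p of 0.247, and 1.35 and 0.218 without BAC depleted 1. Angpt1 had 64.4, 168.5 and 19.1 CPM in BAC depleted libraries, against 14.7, 10.5 and 38.8 CPM in BAC nondepleted libraries. Ptn, a heparin-binding growth factor, had 893, 66.5 and 174 CPM in BAC depleted libraries, against 128, 85.4 and 33.3 CPM in BAC nondepleted libraries. Both overlapped between the groups, and log2 fold changes of 1.98 ± 0.77 (SE) for Angpt1 and 2.20 ± 0.82 for Ptn had adjusted p of 0.0660 and 0.0585. DESeq2's Wald test called both, with adjusted p of 0.0164 for Angpt1 and 0.0114 for Ptn. Both values turned on single libraries. That of Angpt1 was 0.966, with an adjusted p of 0.2955, without BAC depleted 2, whereas it passed at 2.44 (adjusted p = 0.0180) without BAC depleted 3 and at 2.73 (0.0393) without BAC nondepleted 3, and it was 2.14 (0.0818) without BAC depleted 1. The Ptn value was 0.55, with an adjusted p of 0.477, without BAC depleted 1.

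The receptor gene Lepr had 24.2, 2.02 and 0.667 CPM in BAC depleted libraries, against 61.2, 4.54 and 41.2 CPM in BAC nondepleted libraries. Each group thus held both high and low libraries, and the log2 fold change of -1.98 ± 1.13 (SE) had an adjusted p of 0.192. Without BAC depleted 1 it was -4.71 and passed, with an adjusted p of 0.00804. Of the transcription factors, Foxc1 had 98.5, 176.5 and 215 CPM in BAC depleted libraries, against 106, 100.1 and 98.9 CPM in BAC nondepleted libraries, a log2 fold change of 0.69 ± 0.28 (SE) with an adjusted p of 0.0754. Without BAC depleted 1, the library just below the nondepleted ones, Foxc1 was at 0.95 and passed, with an adjusted p of 0.00936. Ebf3 had 47.5, 147 and 14.4 CPM in BAC depleted libraries, against 33.9, 19.1 and 0.915 CPM in BAC nondepleted libraries, and its log2 fold change of 1.95 ± 1.07 (SE) had an adjusted p of 0.175, and 2.17 and 0.188 without BAC depleted 1. Nes had 6.996, 11.6 and 30.4 CPM in BAC depleted libraries, against 30.5, 29.9 and 24.6 CPM in BAC nondepleted libraries. BAC depleted 3 was the library inside the nondepleted range: the log2 fold change of Nes was -0.80 ± 0.43 (SE), adjusted p = 0.169, and -1.62 without that library, with an adjusted p of 0.00164, against -0.44 and 0.379 without BAC depleted 1. Il7 overlapped, with a log2 fold change of -0.12 and an adjusted p of 0.926, and -1.74 and 0.105 without BAC depleted 1.

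Markers of other stromal lineages moved in the same comparison, where 17.4% of all genes were higher and 19.9% lower. Of 7 osteoblast markers tested, 5 were higher and 1, the collagen gene Col1a1, was lower in BAC depleted libraries, and the list of 8 summed to 3745 to 6625 CPM in BAC depleted and 10100 to 22110 CPM in BAC nondepleted libraries, with Bglap2 at 0 counts in BAC nondepleted. Col1a1 made up most of the osteoblast sum, at 5151 ± 1521 CPM in BAC depleted and 16630 ± 6077 CPM in BAC nondepleted libraries. Of 6 chondrocyte markers 3 were higher and 0 were lower, with sums of 2059 to 21870 CPM in BAC depleted and 209.5 to 2652 CPM in BAC nondepleted libraries. Col2a1 made up most of the chondrocyte sum, at 8675 ± 10510 CPM in BAC depleted and 1124 ± 1219 CPM in BAC nondepleted libraries. Of 6 adipocyte markers 3 were higher and 0 were lower, with sums of 91.3 to 1084 CPM in BAC depleted and 274 to 306 CPM in BAC nondepleted libraries. Median log2 fold changes were 2.25 for the osteoblast, 2.24 for the chondrocyte and 1.49 for the adipocyte list, against 0.05 for all genes. Of 10 pericyte and smooth muscle markers 2 were higher and 0 were lower, and of 5 glial and neuronal markers tested 2 were higher and 1 was lower. When BAC depleted 1 was left out, 2 osteoblast, 3 chondrocyte and 2 adipocyte markers were higher. The part of these cells in the changes of Cxcl12 and Vcam1 was not tested.

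Marrow and bone were compared next, first between the purified cells. Marrow cells were grown on collagen-I plates and gated for CD51 and Sca-1, whereas bone-associated cells were freed by collagenase I and had no such gate. Tissue and preparation therefore cannot be told apart, here or between the unpurified groups. Nes was higher in BM sorted than in BAC depleted libraries, and Vcam1 and Ptn were lower. These were 3 of the 10 members, 1 higher and 2 lower, where 47.4% of all genes passed, 22.9% higher and 24.6% lower. The members' median log2 difference was -0.32, against -0.02 for all genes. This comparison shares its libraries with both purification comparisons above, so its values are not independent of theirs.

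Nes, at 31.7 to 50.4 CPM in BM sorted and 6.996 to 30.4 CPM in BAC depleted libraries, did not overlap, as in 26.4% of all genes in this direction and 52.8% in either, and the log2 difference was 1.42 ± 0.44 (SE), adjusted p = 0.0222. The call was lost without BM sorted 2 (adjusted p = 0.0683), BM sorted 3 (0.0639) or BAC depleted 2 (0.0677), and with only these 6 libraries fitted (0.0837). It was 1.05 without BAC depleted 1 (0.0414) and 2.22 without BAC depleted 3 (0.000397). Vcam1, at 108 to 204 CPM in BM sorted and 333 to 439 CPM in BAC depleted libraries, differed at -1.48 ± 0.34 (SE) on the log2 scale, adjusted p = 0.00561, and at -1.43 without BAC depleted 1 (0.0146). Ptn had 8.63, 10.8 and 15.6 CPM in BM sorted libraries and at least 66.5 CPM in BAC depleted libraries. Its log2 difference of -5.02 ± 0.94 (SE; adjusted p = 0.00183) was the widest of the 10, and it was -3.37 without BAC depleted 1, with an adjusted p of 0.00179. Cxcl12 did not pass, at -0.48 ± 0.62 (SE; 95% interval -1.87 to 0.90; adjusted p = 0.551), an interval that holds differences in both directions, and it was at -0.525 without BAC depleted 1 (0.575). Without BM sorted 1, Kitl was at -1.78 and passed, with an adjusted p of 0.0332, against -0.45 and 0.630 with all libraries. Without BAC depleted 1, Lepr at 3.48 and Foxc1 at -0.91 passed, with adjusted p of 0.0187 and 0.00877, against 0.75 and -0.64 with all libraries, which made 5 members called, and Kitl, Angpt1, Il7 and Ebf3 did not pass.

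Between the unpurified preparations the same 3 members passed in the same directions, 1 higher and 2 lower, where 31.7% of all genes passed, 14.9% higher and 16.8% lower. The members' median log2 difference was 0.06, against -0.01 for all genes. Nes had 102, 98.7 and 78.0 CPM in BM nonsorted libraries, against 30.5, 29.9 and 24.6 CPM in BAC nondepleted libraries, a log2 difference of 1.71 ± 0.44 (SE) with an adjusted p of 0.0156. Vcam1 at -1.12 ± 0.34 (SE) and Ptn at -2.79 ± 0.85 had adjusted p of 0.0304 and 0.0306. Neither of these 2 calls held without single libraries. Vcam1 lost its call without any 1 of the BM nonsorted libraries (adjusted p of 0.0628, 0.0637 and 0.0980 without library 1, 2 and 3) or without BAC nondepleted 1 (0.121). Ptn lost its call without any 1 of the BM nonsorted libraries (0.0884, 0.0723 and 0.0932 without library 1, 2 and 3), without BAC nondepleted 1 (0.0938) or without BAC nondepleted 2 (0.0674). Cxcl12 had 1541, 3496 and 4177 CPM in BM nonsorted libraries and 867 to 1144 CPM in BAC nondepleted libraries, with no overlap. In all 4 members parted, Cxcl12 and Nes upward, as did 27.3% of all genes, and 2 downward, as did 28.7%, or 56.0% in either direction. The Cxcl12 log2 difference of 1.64 ± 0.64 (SE) had an adjusted p of 0.0734. DESeq2's Wald test called it, with an adjusted p of 0.0244, and Lepr, at -3.24 with an adjusted p of 0.00628, against -3.21 ± 1.19 (SE) and 0.0642 by edgeR.

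Markers of other cells differed between marrow and bone as well. Of all genes, 22.9% were higher and 24.6% lower between the purified groups, and 14.9% and 16.8% between the unpurified groups. Of the 10 pericyte and smooth muscle markers, 7 were higher and 1 was lower in BM sorted than in BAC depleted libraries, and they summed to 4761 to 6242 CPM in BM sorted and 434 to 1238 CPM in BAC depleted libraries. They summed to 4166 to 5913 CPM in BM nonsorted and 480 to 1148 CPM in BAC nondepleted libraries, with Kcnj8 at 0 counts in both bone groups and Abcc9 at 0 in BAC nondepleted libraries. Of the 6 chondrocyte markers, 0 were higher and 4 were lower in BM sorted than in BAC depleted libraries, with sums of 1104 to 3965 CPM in BM sorted and 2059 to 21870 CPM in BAC depleted libraries, and Matn1 at 0 counts in BM sorted. Of 7 osteoblast markers tested, 3 were higher and 1 was lower in BM sorted, and the list summed to 20360 to 22060 CPM in BM sorted and 3745 to 6625 CPM in BAC depleted libraries. Between the unpurified groups 4 were higher and 0 were lower, with sums of 15310 to 18380 CPM in BM nonsorted and 10100 to 22110 CPM in BAC nondepleted libraries. Col1a1 made up most of the osteoblast sums, at a mean of 20110 CPM in BM sorted and 5151 CPM in BAC depleted libraries. In these groups Acta2 made up most of the pericyte and smooth muscle sums, at 4743 and 530 CPM. Col2a1 made up most of the chondrocyte sums there, at 2792 and 8675 CPM. Of 8 glial and neuronal markers 5 were tested and all 5 passed between the purified groups, 2 higher in BM sorted, among them Tubb3 at 4.01 on the log2 scale, and 3 lower, among them Map2 at -5.63. They summed to 26.1 to 87.3 CPM in BM sorted and 37.4 to 163.6 CPM in BAC depleted libraries, with Sox10 at 0 counts in BM sorted. Between the unpurified groups 1 was higher and 3 were lower, with sums of 66.05 to 114 CPM in BM nonsorted and 50.8 to 54.8 CPM in BAC nondepleted libraries. Without BAC depleted 1, 7 pericyte and smooth muscle markers were higher and 1 was lower between the purified groups, 1 chondrocyte marker was higher and 4 were lower, 2 osteoblast markers were higher, and 2 glial and neuronal markers were higher and 3 lower. The part of these cells in the differences of Nes, Vcam1 and Ptn was not tested.

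**Figure D3:**
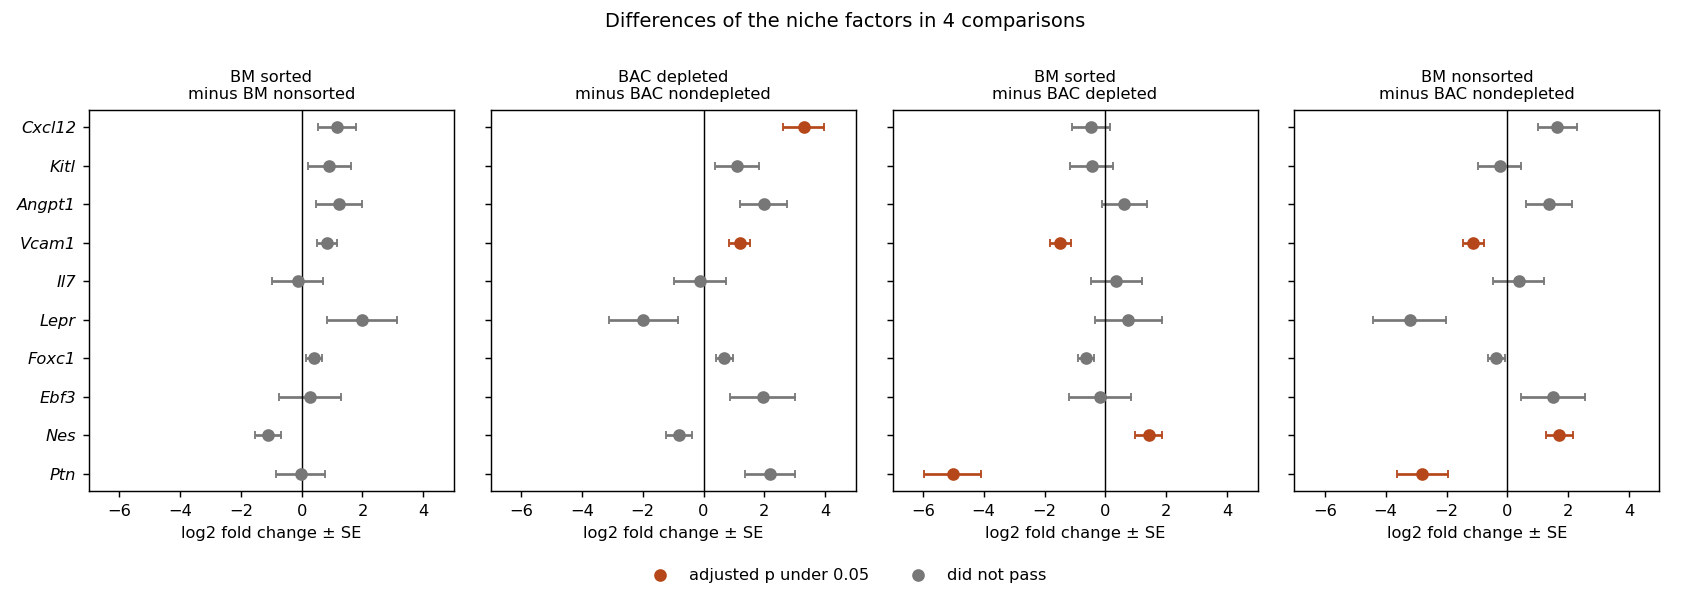
Log2 fold changes of the 10 niche factors with bars of 1 SE on either side in the 4 comparisons of 2 groups, in orange for those with an adjusted p under 0.05 and grey for the others. Cxcl12 and Vcam1 pass in BAC depletion, and Nes, Vcam1 and Ptn pass in both comparisons of marrow with bone.

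The effects of the 2 purification steps were set against each other in an interaction term, sorting minus depletion. None of the 10 members passed, where 8.06% of all genes did, 5.08% higher and 2.99% lower. In edgeR 2 had an unadjusted p under 0.05, Cxcl12 at -2.12 ± 0.89 (SE) and Lepr at 3.97 ± 1.61, and DESeq2's Wald test called Lepr alone, with an adjusted p of 0.0357. So the rise of Cxcl12 on depletion was not shown to differ from its change on sorting, with an adjusted p of 0.166, or 0.186 without BAC depleted 1. Without that library the Lepr difference was 6.69 and passed in edgeR, with an adjusted p of 0.0159.

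Within each group the median niche factor spread more between libraries than the median gene, given here as a description with no test. The highest library exceeded the lowest by a median factor of 1.86 for the members in BM sorted, against 1.24 for all genes with enough counts. The factors were 1.81 against 1.23 in BM nonsorted, 6.82 against 1.47 in BAC depleted and 3.05 against 1.23 in BAC nondepleted libraries. BM sorted 1 was the highest library of its group for 8 of 10 members, all but Nes and Ptn, and for 41.4% of all genes. Adipoq, the adipocyte hormone that niche stroma also makes, had 37.3 CPM there and 1.20 and 0.950 CPM in the other two sorted libraries. The 6 adipocyte markers together ranged over 454 to 1338 CPM in BM sorted libraries and 91.3 to 1084 CPM in BAC depleted libraries. In the BAC depleted group the members parted by library: Il7, Lepr and Ptn were highest in library 1, Cxcl12, Angpt1, Vcam1 and Ebf3 in library 2, and Kitl, Foxc1 and Nes in library 3. Adipoq had 48.3 CPM in BAC depleted 1, 3.78 CPM in library 2 and 0.333 CPM in library 3. The 6 adipocyte markers together did not follow it, with 427, 1084 and 91.3 CPM in BAC depleted libraries 1 to 3.

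**Figure D4:**
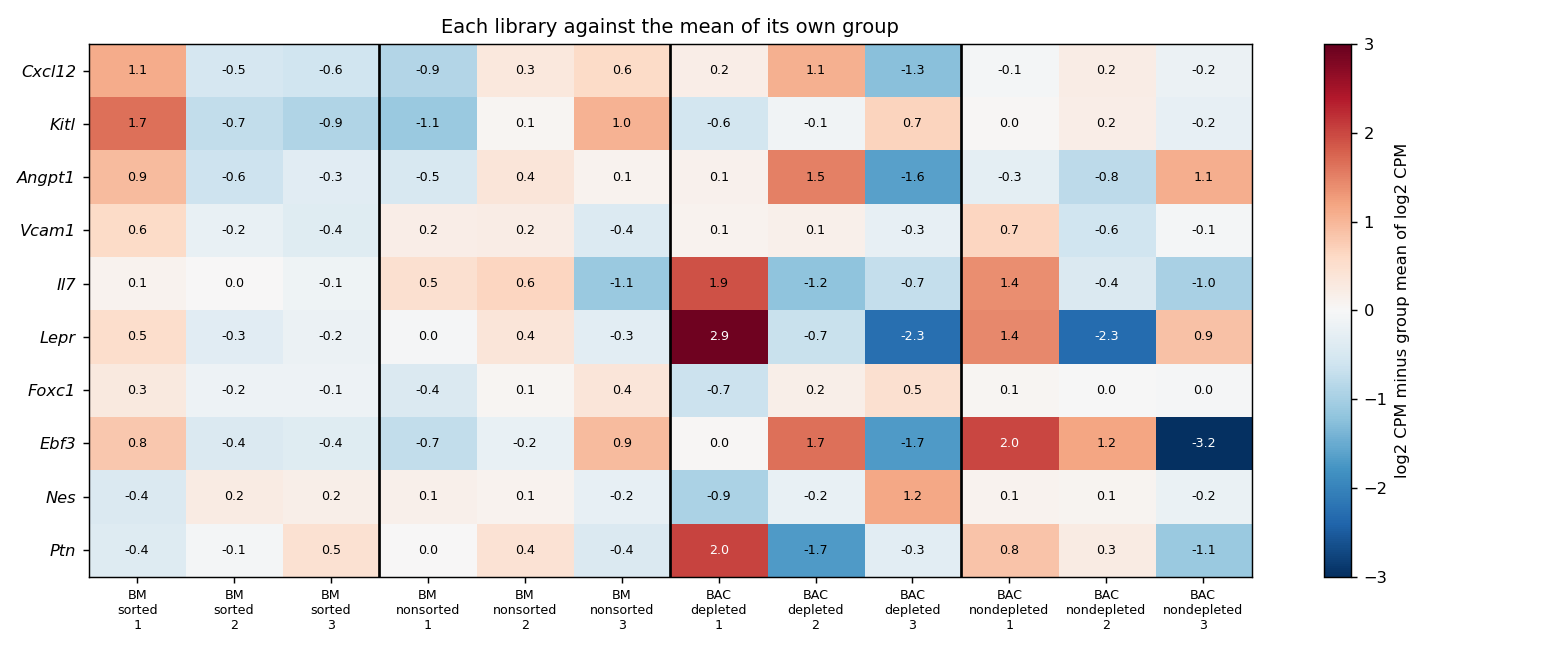
Log2 CPM of each niche factor in each library minus the mean of its own group, as colour and number, with the colour scale ending at 3 and -3. BM sorted 1 is above its group for 8 of 10 members, and the BAC depleted and BAC nondepleted libraries hold the widest deviations, in Lepr, Ebf3, Il7 and Ptn.

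Over the 12 libraries the members were described by how alike their patterns were, with no test. Likeness was measured as the root mean square difference of centred log2 CPM, where smaller is more alike. The measure is not scaled, so genes that vary little lie close together and genes that vary much lie far from most. The SD of log2 CPM was 0.496 for Foxc1 and 1.89 for Lepr. Kitl and Foxc1 were the closest pair of members, at 0.604, then Vcam1 and Foxc1, at 0.69, and Cxcl12 and Angpt1, at 0.795, whereas Nes and Ptn were the farthest apart, at 2.97. Among 10631 genes with at least 5 CPM on average, those most like Cxcl12 were Hp (haptoglobin), at 0.546, Zfp423 (a zinc finger factor of preadipocytes), at 0.584, and Arrdc4, at 0.611. For Ebf3 they were Hic1, a transcriptional repressor, at 0.63, Rbpms at 0.643 and Ndn at 0.858. For Nes they were Klf10, a TGF-beta-induced factor, at 0.474, and Morrbid at 0.475. For Ptn they were P2rx6 at 0.687, Ogn, a proteoglycan of bone matrix, at 0.732, and Aff2 at 0.752. For Angpt1 they were Exoc3l4, Mgst1 and Id4, at 0.583 to 0.619, and for Il7 Styk1, Tom1l1 and Irx5, at 0.463 to 0.684. Lepr had no close partner: the nearest was Spp1 (osteopontin), at 1.12, then Plekhg4 at 1.28 and Crocc2 at 1.3.

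Among the receptors and binding partners of the members, Cxcr4, Itga4, Il7r and Il2rg, genes of blood cells, fell on both purifications. Of 15 on the list, 12 were tested, leaving out Tie1, Alk and Lep, the gene of the hormone that binds LEPR. On sorting, 0 were higher and 4 were lower, where 0.166% and 6.06% of all genes were, with a median log2 fold change of -0.77. Itga4, the α4 chain that binds VCAM1, had 0.638, 0.509 and 0.184 CPM in BM sorted libraries, against 43.4, 41.5 and 33.0 CPM in BM nonsorted libraries, a log2 fold change of -6.47 with an adjusted p of 3.3e-07. Il7r, the receptor of IL-7, was at 0 counts in all BM sorted libraries, against 1.81 to 2.25 CPM in BM nonsorted libraries, at least 63.1-fold lower when the group as a whole is set to a floor of 3 counts. Il2rg, the chain it shares with other cytokine receptors, was lower, at -3.29 on the log2 scale, adjusted p = 0.00215. On depletion 3 were higher and 6 were lower, where 17.4% and 19.9% of all genes were, with a median of -1.21, and the same 9 partners passed without BAC depleted 1. Cxcr4, the receptor of CXCL12, was at 0 counts in all BAC depleted libraries, against 5.10, 3.998 and 6.14 CPM in BAC nondepleted libraries, at least 141-fold lower, and Itga4 and Il2rg were lower, at -4.84 and -6.94 on the log2 scale, with adjusted p of 6.36e-07 and 1.98e-05. These falls stood beside the macrophage marker sums given above, and their source was not tested.

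The partners that rose on depletion were Dpp4, Ptprz1 and Tek, each uneven between the depleted libraries. Dpp4, the peptidase that cuts CXCL12, had 2.38, 13.7 and 88.2 CPM in BAC depleted libraries, against 1.21, 1.53 and 2.10 CPM in BAC nondepleted libraries, a log2 fold change of 4.43 with an adjusted p of 0.00977, or 0.0592 with only the bone libraries fitted, and 4.98 and 0.000966 without BAC depleted 1. It had 2 counts over all BM sorted libraries, against 2577 in BAC depleted libraries, a ratio of 1470 in favour of the bone cells (95% counting interval 408 to 12200). Ptprz1, a receptor of pleiotrophin, had 0.127, 47.0 and 1.5 CPM in BAC depleted libraries, against 0.0336, 0.0727 and 0 CPM in BAC nondepleted libraries, so the high level was that of BAC depleted 2. Its count ratio was 455 (155 to 2210), and the edgeR adjusted p was 0.0114, where DESeq2's Wald test gave none. In marrow Ptprz1 was at 18.9, 46.5 and 44.8 CPM in BM sorted and 26.4 to 35.2 CPM in BM nonsorted libraries, while its ligand gene Ptn was at its lowest there. Tek, the receptor of angiopoietin 1, had 156 counts over the BAC depleted libraries, 142 of them in library 2, against 3 over the BAC nondepleted libraries, a ratio of 51.9 (17.4 to 254) with an adjusted p of 0.0135, or 0.00680 without BAC depleted 1. Kit, the receptor of stem cell factor, had 6.21, 0.509 and 0.950 CPM in BM sorted libraries and 8.27, 0.248 and 0 CPM in BAC depleted libraries, so BM sorted 1 and BAC depleted 1 were the high ones. Between the purified groups 3 partners were higher and 2 were lower in BM sorted, where 22.9% and 24.6% of all genes were, so the count is near the background. The same 5 passed without BAC depleted 1. Sdc3, a syndecan that binds pleiotrophin, was higher by 1.26 on the log2 scale with an edgeR adjusted p of 0.00440. Itga4 was lower, at -2.79 with an adjusted p of 9.36e-05. Between the unpurified groups 1 was higher, Ptprz1, and 5 were lower in BM nonsorted, where 14.9% and 16.8% of all genes were. Among the lower ones was Ackr3, the scavenging receptor of CXCL12, at -2.25 with an edgeR adjusted p of 0.00876. In the interaction term 2 were higher, Cxcr4 and Il2rg, and 1 was lower, Itga4, where 5.08% and 2.99% of all genes were. The call of Il2rg there was lost without BM sorted 2, BM nonsorted 2 or BAC nondepleted 1 or 2, and that of Itga4 without BM sorted 2, BM nonsorted 1 or 2 or any 1 of the BAC nondepleted libraries.

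**Figure D5:**
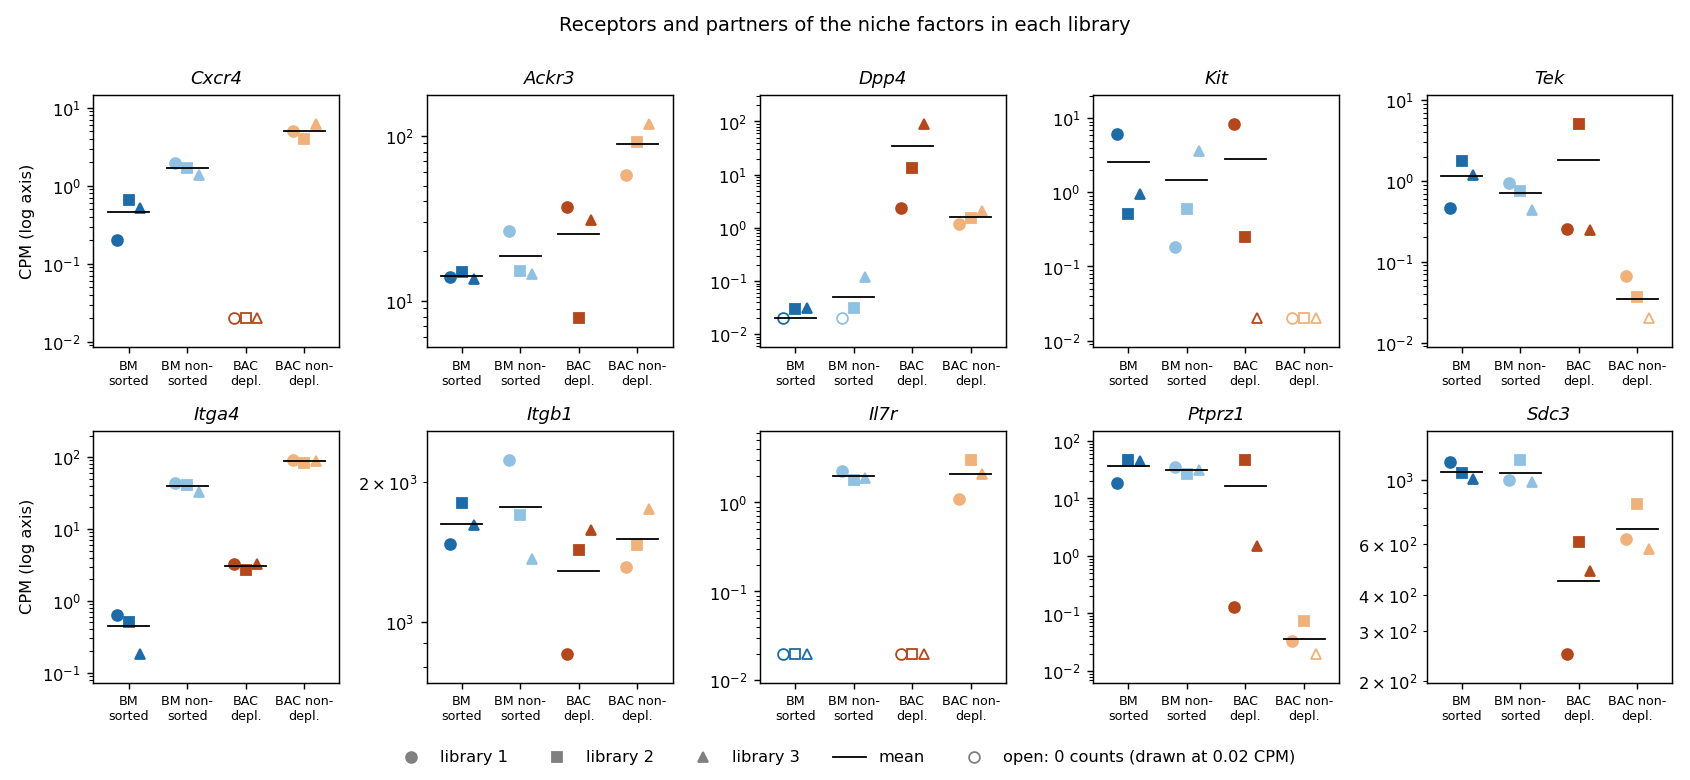
CPM of 10 receptors and binding partners in each library on log axes, with symbols for libraries 1 to 3 and a line at the group mean; open symbols are libraries with 0 counts. Il7r is at 0 in BM sorted and BAC depleted libraries, Cxcr4 is at 0 in BAC depleted libraries, and Ptprz1 and Tek are high in BAC depleted 2.

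Among close relatives of the members Mdk rose on depletion, and between marrow and bone members of the list passed in both directions. Of 11 paralogues, 0 passed on sorting, where 6.23% of all genes did. The most abundant, the filament gene Vim, averaged 3822 ± 358 CPM in BM sorted and 5024 ± 1480 CPM in BM nonsorted libraries. By edgeR 1 had an unadjusted p under 0.05, and DESeq2's Wald test called 0. The median log2 fold change was 0.31 on sorting and 1.004 on depletion, against 0.00 and 0.05 for all genes. On depletion 3 were higher and 0 were lower, where 17.4% and 19.9% of all genes were. Mdk, midkine, the only relative of pleiotrophin in its family, had 95.5, 136 and 80.9 CPM in BAC depleted libraries, against 23.8, 12.5 and 33.7 CPM in BAC nondepleted libraries, a log2 fold change of 2.16 with an adjusted p of 0.00748, and 2.22 and 0.0138 without BAC depleted 1. Angpt4 at 3.002 and Ebf2 at 5.07 passed with adjusted p of 0.0378 and 0.0456 but lost their calls without single libraries, Angpt4 without BAC depleted 1 or BAC nondepleted 2 or 3, and Ebf2 without BAC depleted 2 or any 1 of the BAC nondepleted libraries. Between the purified groups 2 were higher in BM sorted, Angpt2 (a TEK ligand, by 3.74) and Foxc2 (the sister gene of Foxc1, by 1.58), and 3 were lower, Mdk at -2.88, Icam1 (an adhesion molecule related to VCAM1) at -1.56 and Ebf4 at -2.48, with adjusted p of 0.000296 to 0.00375. All genes passed at 22.9% higher and 24.6% lower there, and without BAC depleted 1 these 5 passed with Csf1 and Vim, which were lower. Mdk and Ptn were thus both lower in BM sorted than in BAC depleted libraries, while Foxc1 did not pass where Foxc2 did. Between the unpurified groups 3 were higher in BM nonsorted, Foxc2 by 1.897, Angpt2 by 2.05 and Ebf2 by 5.21, and 2 were lower, Icam1 at -1.26 and Ebf4 at -1.78, with adjusted p of 0.00280 to 0.0473. Of all genes 14.9% were higher and 16.8% lower there. The call of Ebf2 was lost without any 1 of the 6 libraries, and that of Ebf4 without any 1 but BAC nondepleted 3. In the interaction term 0 paralogues passed by edgeR, where 8.06% of all genes did, or by DESeq2, and 2 had an unadjusted p under 0.05 in edgeR.

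Among other stromal factors of the niche Esm1 rose on depletion, and Osm and Tgfb1 fell on both purifications. Of 20, 18 were tested, with a median log2 fold change of -0.05 on sorting and 0.40 on depletion. On sorting 0 were higher and 2 were lower, where 0.166% and 6.06% of all genes were. Osm, oncostatin M, a macrophage cytokine, was at 0 counts in BM sorted libraries and at 2.43 to 2.89 CPM in BM nonsorted libraries. Tgfb1 had 22.5 ± 2.20 CPM in BM sorted and 55.6 ± 1.14 CPM in BM nonsorted libraries. On depletion 3 were higher and 3 were lower, which is 6 of 18 where 37.3% of all genes passed, so the count is near the background. The count was 6 higher and 3 lower without BAC depleted 1. Esm1, a secreted proteoglycan, had 285, 183 and 261 CPM in BAC depleted libraries, against 13.6, 19.0 and 15.4 CPM in BAC nondepleted libraries, a log2 fold change of 3.92 with an adjusted p of 0.00506, and 3.80 and 0.0110 without BAC depleted 1. Grem1, a BMP antagonist of skeletal stem cells, was higher by 4.03, with 47.6 ± 41.5 CPM in BAC depleted and 2.93 ± 3.93 CPM in BAC nondepleted libraries, and an adjusted p of 0.0102, or 0.0702 with only the bone libraries fitted. Angptl1 was higher by 7.60, with 146.7 CPM in BAC depleted 2, and its call was lost without that library and without BAC nondepleted 2 or 3. Osm was at 0 counts in BAC depleted libraries, Tgfb1 was lower, at -2.47, and Tnfsf11, the osteoclast factor RANKL, at -2.54. The Tnfsf11 call was lost without BAC depleted 1 or BAC nondepleted 2.

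Between the purified groups 3 other niche factors were higher in BM sorted and 5 were lower, 8 of 18 where 47.4% of all genes passed, and 4 and 5 without BAC depleted 1. Tnfsf11 was higher, with 24.8 ± 4.12 CPM in BM sorted and 2.76 ± 3.25 CPM in BAC depleted libraries, a log2 difference of 3.16 with an adjusted p of 0.00551. Igf1, a growth factor of bone, was lower, with 101.5 ± 37.8 CPM in BM sorted and 403 ± 114 CPM in BAC depleted libraries (-1.99, adjusted p = 0.00192), as were Esm1 at -3.98 and Thpo, thrombopoietin, at -2.36, with adjusted p of 0.00350 and 0.00526. Between the unpurified groups 3 were higher and 3 were lower in BM nonsorted, 6 of 18 where 31.7% of all genes passed, among them Lif, an interleukin 6 family cytokine, by 3.15 with an adjusted p of 0.0180, a call lost without BM nonsorted 2 and without BAC nondepleted 1 or 2. Osm was lower, at -2.89, adjusted p = 0.000617. The median log2 difference of the list was -0.25 between the purified and -0.26 between the unpurified groups. In the interaction term 1 was higher, Tgfb1, and 1 was lower, Angptl1, where 5.08% and 2.99% of all genes were. The call of Tgfb1 was lost without any 1 of the libraries but BAC depleted 3 (edgeR adjusted p = 0.0781 without BAC depleted 1).

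Among surface and lineage markers of stromal progenitors, Mcam and Acta2 were higher and Cspg4 and Thy1 were lower in BM sorted than in BAC depleted libraries. Of 13, 0 passed on sorting by edgeR, where 6.23% of all genes did, and 3 had an unadjusted p under 0.05. DESeq2's Wald test called 2, Adipoq higher and Cspg4 lower. Acta2, smooth muscle actin, was the most abundant, at 4743 ± 585 CPM in BM sorted and 4343 ± 694.5 CPM in BM nonsorted libraries. On depletion 3 were higher and 0 were lower, where 17.4% and 19.9% of all genes were: Pdgfrb had 574 ± 296 CPM in BAC depleted and 239 ± 62.3 CPM in BAC nondepleted libraries, a log2 fold change of 1.27 with an adjusted p of 0.0124, lost without BAC nondepleted 1. Adipoq and Eng also passed, and both calls were lost without any 1 of the BAC nondepleted libraries, that of Adipoq also without BAC depleted 1 and that of Eng without BAC depleted 2. Between the purified groups 2 were higher and 5 were lower in BM sorted, 7 of 13 where 47.4% of all genes passed, so the count is near the background, and 2 and 4 without BAC depleted 1. Mcam, the CD146 gene of perivascular cells, had 64.2, 119 and 95.1 CPM in BM sorted libraries, against 3.27, 6.26 and 0.875 CPM in BAC depleted libraries, and Acta2 had 530.0 ± 436.5 CPM in BAC depleted libraries. Log2 differences were 4.73 for Mcam and 3.16 for Acta2, with adjusted p of 0.000352 and 0.00119. Cspg4, the NG2 gene of pericytes, went the other way, with 3.66, 2.46 and 1.71 CPM in BM sorted libraries and 56.2, 54.7 and 145 CPM in BAC depleted libraries, as did Thy1 at 20.4 ± 5.86 CPM in BM sorted and 221 ± 37.9 CPM in BAC depleted libraries. Log2 differences were -5.03 for Cspg4 and -3.43 for Thy1, with adjusted p of 0.00249 and 0.00507. Nes, Mcam and Acta2, which all mark perivascular cells, were thus higher in BM sorted, and Cspg4 was lower. Between the unpurified groups Mcam at 5.99 and Acta2 at 2.69 were again higher in BM nonsorted, with adjusted p of 0.000538 and 0.00550, and Nt5e, the CD73 gene, was lower, at -2.998 with an adjusted p of 0.00675. In that comparison 3 of the 13 were higher and 2 were lower in all, 5 of 13 where 31.7% of all genes passed. The median log2 fold change of the list was 0.13 on sorting and 1.26 on depletion, and the median difference was -0.44 between the purified and 0.82 between the unpurified groups. In the interaction term 0 passed by edgeR, where 8.06% of all genes did, and 5 had an unadjusted p under 0.05. DESeq2's Wald test called 2, Cspg4 and Eng.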

How the data were processed

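Total RNA of 12 libraries was made into sequencing libraries with a low-input kit, per the labels' protocols. The authors deposited one table of raw read counts per gene. The build was GRCm39, and MultiQC 1.7, STAR 2.7.9a and Subread 2.0.1 with featureCounts are listed, per the submitters' processing notes. Neither the strand setting nor the annotation release is known from these sources. Groups were taken from the sample titles.

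Counts were tested with edgeR 4.0.16 (R 4.3.3): TMM scaling, filterByExpr, 1 model with a mean per group over all 12 libraries, and robust quasi-likelihood F tests of 5 contrasts (8 residual degrees of freedom, common dispersion 0.0969). Benjamini-Hochberg adjustment ran over the 15698 genes tested, with calls at 0.05. The SE of a log2 fold change is its size over the root of F. Of the table's entries 22808 had 0 counts throughout, and 1442 carried no symbol and were kept in. The 12 totals of 27937709 to 32164725 counts set the counting precision, and bounds and counting intervals cover counting error only, since amplified reads are not independent molecules. Exon lengths came from GENCODE M21 on GRCm38, and promoter windows from RefSeq on GRCm38.p6.

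The 10 members and the pathway and marker lists were chosen with earlier results of these data known. All members are named; from each other list the text names up to 3 genes that rose and 3 that fell with the smallest adjusted p, or the most abundant gene where none passed, and a few receptors beyond that were chosen after their values were seen. Like genes needed a mean of at least 5 CPM, for members with an SD of log2 CPM of at least 1. No 2 libraries of a group agreed within sampling noise. The test was tried on simulated counts with 200 changed genes: for BAC depleted against BAC nondepleted, on 15373 genes, it recovered 95% of log2 changes of 2 and 12% of those of 1. For BM sorted against BM nonsorted, on 15394 genes, it recovered 98% and 23%. The simulation gave all genes and groups the same dispersion and changed only genes with enough expected counts. In the data the highest library exceeded the lowest by a median factor of 1.47 in BAC depleted and 1.24 in BM sorted. These shares are therefore not known to hold for genes or groups that vary more than the simulated ones. Alternatives were DESeq2 1.42.0 size factors and Wald test, upper quartile scaling, no filter, a filter of 1 CPM in 3 libraries, a replicate block, only the groups compared, and each library left out. One gene with a pattern like that of Nes is not reported here.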

Additional observations from a re-analysis of the deposited data

Results flagged for a closer look

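Effects of sorting and depletion differed by the interaction test in edgeR for 5 genes of the pathway lists and for 0 of the 10 niche factors, where 8.06% of all genes passed. Cxcr4, at 8.4 on the log2 scale (adjusted p = 0.00336), had a log2 fold change of -1.86 on sorting and was at 0 counts after depletion, so the fitted size depends on the prior count and is no measure of the difference. Il2rg was at 3.66 (adjusted p = 0.0216), with -3.29 on sorting and -6.94 on depletion. Itga4 was at -1.63 (adjusted p = 0.0299), with -6.47 on sorting and -4.84 on depletion. The calls of Il2rg and Itga4 were lost without some single libraries, with edgeR adjusted p of up to 0.0575 and 0.0757. Tgfb1 was at 1.16 (adjusted p = 0.0493), with -1.31 on sorting and -2.47 on depletion, and its call was lost without any 1 of the libraries but BAC depleted 3. Angptl1 was at -11.93 (adjusted p = 0.0384), with 7.60 on depletion, most of it from BAC depleted 2. Its sorting value did not pass and rests on 6 counts over the BM sorted libraries. The interaction call of Angptl1 was lost without any 1 of the BM sorted, BM nonsorted or BAC nondepleted libraries. The sources of these differences were not tested.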

How the results depend on the processing

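The 8 calls of members kept their direction under all 104 alternative fits, and 86 of these also kept the call. Calls lost were those of Vcam1, Nes and Ptn. With no low-count filter, Nes between BM sorted and BAC depleted (adjusted p = 0.0508) and Vcam1 (0.0511) and Ptn (0.0934) between BM nonsorted and BAC nondepleted missed the threshold, which left 1 member there instead of 3. The number of members called by DESeq2's Wald test was 4 in depletion, 5 between BM nonsorted and BAC nondepleted and 1 in the interaction term. With only the groups compared fitted it was 2 in sorting and 5 between BM nonsorted and BAC nondepleted. Leaving out 1 library at a time gave 0 to 0 members in sorting, 1 to 5 in depletion, 2 to 5 between BM sorted and BAC depleted, 1 to 3 between BM nonsorted and BAC nondepleted and 0 to 1 in the interaction term.

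Counts over all genes moved as follows. In depletion 5863 genes passed, 3556 with only the groups compared and 4379 to 5990 without 1 library. Between BM nonsorted and BAC nondepleted 4980 passed, and 2949 to 4188 without 1 library. Between BM sorted and BAC depleted 7447 passed, and 5678 to 7667 without 1 library, and in sorting 978, and 749 to 839. In the interaction term 1266 passed, 2440 by DESeq2's Wald test and 437 to 1612 without 1 library. Upper quartile scaling moved the median log2 fold change of all genes in depletion to 0.13, with 3248 genes higher and 2737 lower, against 2735 and 3128 under TMM.

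Libraries of a group share numbers with other groups. Deviations of same-numbered libraries correlated at -0.223 to 0.215 in sorting, 0.044 to 0.237 in depletion, 0.028 to 0.125 between BM sorted and BAC depleted and -0.058 to -0.029 between BM nonsorted and BAC nondepleted, so the number was not taken as a pairing. Not every library correlated best with its own number. By Xist and Ddx3y, BAC depleted 1 also came from other mice than the libraries numbered 1 in the other groups. With the number as a replicate block the interaction term called 808 genes. The block turned small values round: Ebf3 to 0.046 between BM sorted and BAC depleted and -0.10 in sorting, Il7 to 0.045 in sorting and 0.29 in the interaction term, and Ptn to 0.082 in sorting.

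Of 700 alternative values of the members 43 changed sign, none of them of a call. Apart from the block, Il7 was 0.009 in depletion with upper quartile scaling, and in the interaction term 0.005 by DESeq2 and 0.077 with no filter, and Ptn in sorting was 0.053 with upper quartile scaling and 0.021 with no filter. Without 1 library at a time, Angpt1 ran over -0.007 to 1.63 between BM sorted and BAC depleted and -1.502 to 0.26 in the interaction term, Cxcl12 over -1.26 to 0.16 between BM sorted and BAC depleted, and Ebf3 over -0.69 to 0.99 there and -0.25 to 0.89 in sorting. Il7 ran over -1.74 to 0.92 in depletion, -0.014 to 1.41 between BM nonsorted and BAC nondepleted, -0.09 to 1.98 between BM sorted and BAC depleted, -0.51 to 0.16 in sorting and -1.05 to 1.61 in the interaction term. Kitl ran over -0.91 to 0.14 between BM nonsorted and BAC nondepleted, -0.43 to 1.56 in sorting and -1.53 to 0.47 in the interaction term, Nes over -0.66 to 0.54 in the interaction term, and Ptn over -0.29 to 0.21 in sorting. The causes were not tested.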
